A study of Mus musculus with 6 samples.

Results

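The Krüppel-like factors (Klf) are transcription factors, and 10 of their genes were examined here, namely Klf2, Klf3, Klf4, Klf5, Klf6, Klf9, Klf10, Klf11, Klf13 and Klf15. They were chosen by name, and all 10 were found by Entrez gene ID among the 13363 genes with deposited values. RNA had been sequenced from the gastrocnemius muscle of 3 C26 mice and 3 control mice. All were male mice of the Balb/c strain, purchased at an age of 6 weeks. The C26 mice had received 500000 cells of the colon-26 (C26) adenocarcinoma line under the skin of the right flank, a tumor line whose growth is followed by loss of weight and muscle, and the control mice carried no tumor. RNA came from frozen tissue with no sorting of cells, so every value is a sum over muscle fibres, vessels, fat and immune cells.

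Krüppel-like factors bind GC-rich and CACCC sequences in promoters through 3 zinc fingers at their C-terminal end, and they differ in the rest of the protein, which recruits coactivators or corepressors. The members fall into groups by these partners. Klf2, Klf4, Klf5 and Klf6 bind acetyltransferases such as p300, Klf3 binds the corepressor CtBP, Klf9, Klf10, Klf11 and Klf13 bind the corepressor Sin3A, and Klf15 is set apart from these groups. In skeletal muscle Klf15 is known as a gene induced by glucocorticoids that raises the use of amino acids and fatty acids.

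Markers of the muscle and of other cells were read first, beside 19.4% of all genes called higher and 14.5% called lower. The 12 muscle fibre markers were high in every muscle, with sums from 221979 to 242248 TPM in control and from 121666 to 200104 TPM in C26 muscles, and 1 rose and 2 fell. Endothelial markers gave 0 higher and 3 lower of 12, fat cell markers 1 and 6 of 10, fibroblast markers 0 and 5 of 10, smooth muscle and pericyte markers 0 and 2 of 8, satellite cell markers 1 and 1 of 6, and immune markers 2 and 0 of the 8 with values, by limma. No deposited value of any gene was 0, the smallest being 0.01 FPKM, so a listed value does not by itself show that a marker was detected. The other 6 of the 14 immune markers had no values. Each of 3 muscles stood apart in some markers. Control replicate 3 had 40.10 FPKM of Ptprc, the gene of the leukocyte antigen CD45, against 0.81 and 0.40 in the other controls and 0.23 to 0.40 in C26 muscles. C26 replicate 3 had 4906.06 FPKM of the myoglobin gene Mb against 275.23 and 73.96 in the other C26 muscles, and 2555.40 FPKM of the IIx myosin gene Myh1 against 298.97 and 254.27. C26 replicate 2 had 246.65 FPKM of the macrophage gene Cd68 against 34.85 and 6.46 in the other C26 muscles and at most 5.77 in control muscles. The other macrophage genes of the list did not follow it, with 0.46 FPKM of Adgre1, 2.52 of Csf1r and 0.42 of Itgam in that muscle against up to 0.50, 8.34 and 0.66 in control muscles. Members whose call depended on 1 of these muscles are given with and without it.

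In C26 muscles, 5 of the 10 members rose (Klf15, Klf10, Klf9, Klf4 and Klf6), 1 fell (Klf13), and 4 did not pass the test (Klf2, Klf3, Klf5 and Klf11). The test was limma on log2-transformed TPM, with Benjamini-Hochberg adjustment over all 13363 genes. TPM give each muscle the same sum over genes. They were then divided by a scaling factor for each muscle (TMM), from 0.90 to 1.08, after which the sums differ. The TPM sums given here are after that step. A gene was called at an adjusted p under 0.05. At that threshold 19.4% of all genes were called higher and 14.5% lower, 33.8% in all. The median log2 fold change was 0.70 over the 10 members and -0.05 over all genes. Klf15 was the member that also passed the fold criterion of 4, which 1.77% of all genes passed upward. In FPKM, the deposited unit, which scales reads by transcript length and library total, 6 of the 10 members had groups without overlap, 5 with C26 higher (18.7% of all genes) and 1 with C26 lower (34.6%). Such separation was seen in 53.3% of all genes and was thus common in these muscles. Klf4 and Klf6 were the weakest of these calls. Each muscle was also left out in turn, and Klf4 then lost its call in 4 of 6 cases, with adjusted p of 0.0868 without C26 replicate 1 and of 0.0639, 0.0714 and 0.0663 without control replicates 1, 2 and 3 (limma). Klf6 lost it in 4 as well, with adjusted p of 0.0567 and 0.0803 without C26 replicates 1 and 2 and of 0.0765 and 0.0558 without control replicates 2 and 3 (limma).

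**Figure D1:**
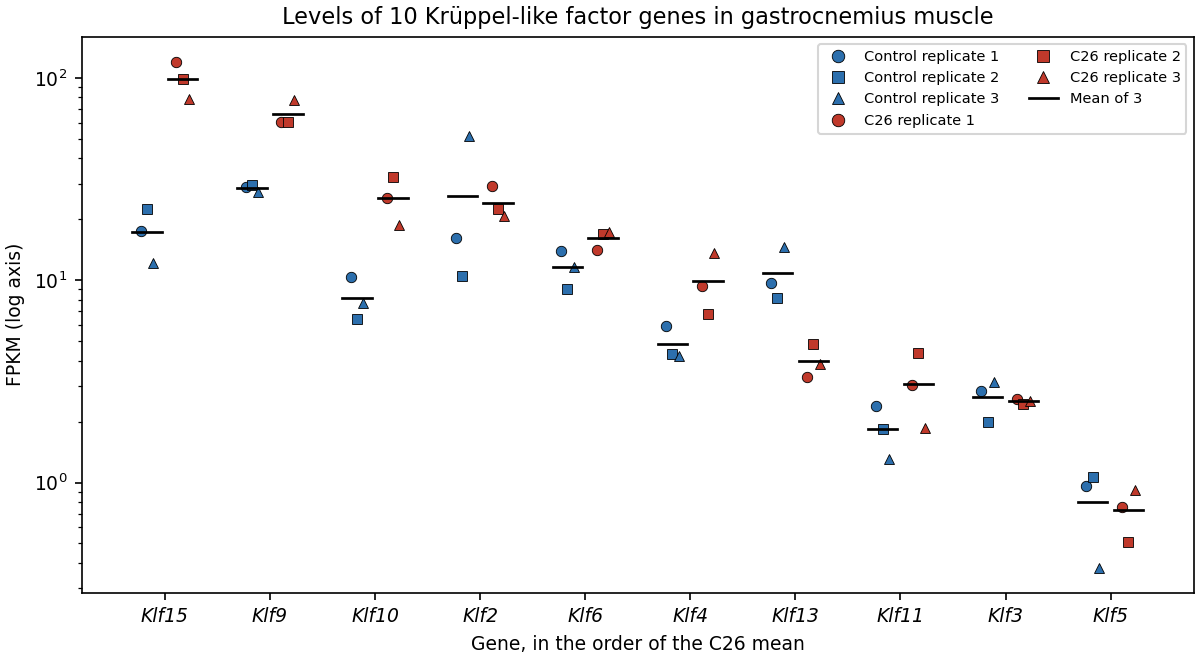
FPKM of the 10 genes on a log axis in 3 control (blue) and 3 C26 muscles (red), with 1 marker shape for each replicate number and a line at the mean of 3. Klf15 and Klf9 stood highest in C26 muscles, the groups did not overlap for Klf15, Klf9, Klf10, Klf6, Klf4 and Klf13, and control replicate 3 (triangle) lay apart for Klf2 at 51.35 FPKM.

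Klf15 (Entrez gene ID 66277) showed the largest change of the 10 members. Its level was 17.48, 22.42 and 12.21 FPKM in control muscles and 119.63, 98.97 and 78.66 FPKM in C26 muscles. Every C26 muscle was above every control muscle. The mean rose from 17.4 ± 5.11 to 99.1 ± 20.5 FPKM (SD, n = 3 each), with a log2 fold change of 2.70 (SE 0.29, 95% interval 2.0 to 3.40, limma adjusted p = 0.00308). This is a 6.51-fold difference on the log2(TPM + 1) scale, place 88 from the top among the 13363 genes. Leaving out any 1 of the muscles kept the call, with log2 fold changes from 2.43 to 2.97.

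The upstream sequence of Klf15 was read from RefSeq promoters (GRCm38.p6), of which 8 of the 10 members had an entry, all but Klf5 and Klf10. It is shown with those of Klf9, another riser, and of Klf13, the member that fell, each from 250 bases before the transcription start to the base before it, on the strand of the gene. The stretches lie at chr6:90462326-90462575 on the plus strand for Klf15, chr19:23140976-23141225 on the plus strand for Klf9 and chr7:63938916-63939165 on the minus strand for Klf13. Capitals mark, on either strand, the E-box CACGTG, the GC box GGGCGG, the CACCC box and the CCAAT box, and a capital run can hold overlapping matches.
Klf15: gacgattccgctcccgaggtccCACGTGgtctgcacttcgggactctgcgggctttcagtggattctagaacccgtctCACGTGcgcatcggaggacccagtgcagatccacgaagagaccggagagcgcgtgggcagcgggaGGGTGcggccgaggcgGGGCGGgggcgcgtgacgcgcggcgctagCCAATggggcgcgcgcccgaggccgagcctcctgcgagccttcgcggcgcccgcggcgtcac
Klf9: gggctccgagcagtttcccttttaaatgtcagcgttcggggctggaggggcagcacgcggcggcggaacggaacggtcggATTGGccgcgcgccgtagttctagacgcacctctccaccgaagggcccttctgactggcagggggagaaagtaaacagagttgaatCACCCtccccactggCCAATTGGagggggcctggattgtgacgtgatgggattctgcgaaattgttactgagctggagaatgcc
Klf13: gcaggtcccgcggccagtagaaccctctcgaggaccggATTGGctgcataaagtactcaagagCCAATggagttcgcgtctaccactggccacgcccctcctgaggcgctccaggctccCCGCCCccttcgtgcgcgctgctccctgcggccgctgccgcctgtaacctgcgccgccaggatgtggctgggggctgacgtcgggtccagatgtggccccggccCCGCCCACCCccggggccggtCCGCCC

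The Klf15 stretch holds CACGTG at 2 places, at bases -228 to -223 and -172 to -167 from the start. This palindrome is a sequence to which the clock factors Clock and Bmal1 and other basic helix-loop-helix factors can bind. It occurs upstream of 4 of the 8 members with an entry (Klf4, Klf6, Klf11 and Klf15) and of 6.02% of all 32851 promoters in the table. The GC box and the CACCC box are letters that Krüppel-like and Sp factors themselves can bind, and they were found upstream of 7 and 5 of the 8 members and of 32.7% and 52.0% of all promoters. These upstream stretches are rich in G and C, 72.0% of bases in Klf15, 59.6% in Klf9 and 71.6% in Klf13, against a median of 52.4% over all promoters. Klf9 had GTAAACA, a forkhead element, at bases -100 to -94, which 3.17% of all promoters hold. It also had TTCTGCGAA, a match to the STAT site TTCNNNGAA, at bases -33 to -25, which 7.02% of all promoters hold. Each of these was found in 1 of the 8 stretches. The TATA box TATAAA and the AP-1 site TGAGTCA were in none of the 8, and in 12.4% and 4.46% of all promoters. AGAACA, a short core of the glucocorticoid response element, was in none of the 8 stretches and in 16.1% of all promoters, and sites farther from the start lie outside this window. The matches describe letters, and no binding was measured.

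Of the members that bind Sin3A, Klf9 and Klf10 rose, Klf13 fell and Klf11 did not pass the test. Klf9 (Entrez gene ID 16601), a factor induced by glucocorticoids and thyroid hormone, had 28.87, 29.64 and 27.31 FPKM in control muscles and 60.17, 60.63 and 77.47 FPKM in C26 muscles. The control muscles were nearly alike, and the C26 muscles were all higher. The mean went from 28.6 ± 1.19 to 66.1 ± 9.86 FPKM (SD, n = 3 each), a log2 fold change of 1.40 (SE 0.19, limma adjusted p = 0.00511).

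Klf10 (Entrez gene ID 21847), first known as a gene induced early by TGF-beta, had 10.41, 6.42 and 7.69 FPKM in control muscles and 25.57, 32.49 and 18.76 FPKM in C26 muscles. The groups did not overlap, and C26 replicate 2 was the highest and C26 replicate 3 the lowest of the C26 muscles. The log2 fold change was 1.78 (SE 0.22, limma adjusted p = 0.00434), next after that of Klf15, and without C26 replicate 2 it was 1.62 (limma adjusted p = 0.0176). Klf11 (Entrez gene ID 194655), its close relative, had 2.38, 1.84 and 1.31 FPKM in control muscles and 3.03, 4.37 and 1.85 FPKM in C26 muscles. C26 replicate 3 lay within the range of the controls. The log2 fold change of Klf11 was 0.72 (95% interval 0.04 to 1.40, limma adjusted p = 0.0921). Without C26 replicate 3 it was 1.03 and passed the test (limma adjusted p = 0.0235), and without C26 replicate 2, the highest in Klf11, it was 0.50 (limma adjusted p = 0.239). The first of these muscles stood apart in Mb and Myh1 and the other in Cd68, and the part of this in the values of Klf10 and Klf11 was not tested.

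Klf13 (Entrez gene ID 50794), which is known in lymphocytes as a regulator of the chemokine gene Ccl5, was the member that fell. It had 9.66, 8.14 and 14.64 FPKM in control muscles and 3.34, 4.81 and 3.86 FPKM in C26 muscles. All C26 muscles were below all control muscles, and control replicate 3 was the highest. The mean went from 10.8 ± 3.40 to 4.0 ± 0.75 FPKM (SD, n = 3 each), a log2 fold change of -1.08 (SE 0.21, limma adjusted p = 0.0121). In bulk muscle, fewer cells of a type and less RNA per cell cannot be told apart. Control replicate 3 was also the muscle with the most Ptprc. Without it the log2 fold change of Klf13 was -0.90 and was still called (limma adjusted p = 0.0181). Without C26 replicate 1 it was -0.97 (limma adjusted p = 0.0524) and was no longer called.

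Among the members that bind acetyltransferases, Klf4 and Klf6 rose, and Klf2 and Klf5 did not pass the test. Klf4 (Entrez gene ID 16600), which acts in vessels, monocytes and epithelia and is a gene of the early response, had 5.96, 4.33 and 4.22 FPKM in control muscles and 9.37, 6.84 and 13.63 FPKM in C26 muscles. The groups did not overlap, and C26 replicate 3 was the highest. Klf4 had a log2 fold change of 1.12 (SE 0.29, limma adjusted p = 0.0289), called in 6 of 7 alternatives with all muscles. Klf6 (Entrez gene ID 23849), a widely expressed factor of wound and stress responses, had 13.96, 9.07 and 11.65 FPKM in control muscles and 14.11, 16.88 and 17.31 FPKM in C26 muscles. The lowest C26 muscle and the highest control muscle were close, 14.11 against 13.96 FPKM. The log2 fold change of Klf6 was 0.68 (SE 0.17, limma adjusted p = 0.0277), the smallest of the members that rose, and the call was kept in 4 of 7 alternatives with all muscles.

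Klf2 (Entrez gene ID 16598), known for its part in quiescent endothelium and in resting T cells, had 16.11, 10.47 and 51.35 FPKM in control muscles and 29.21, 22.41 and 20.73 FPKM in C26 muscles. The groups overlapped because control replicate 3 lay above every other muscle, while the other controls lay below every C26 muscle. For Klf2 the log2 fold change was 0.41 (95% interval -0.79 to 1.62, limma adjusted p = 0.542). Without control replicate 3 it was 1.01 and passed the test (limma adjusted p = 0.0226). In that muscle the 8 listed immune markers of 14 summed to 97.5 TPM against 19.7 and 11.0 in the other controls, and the T cell gene Cd4 had 10.54 FPKM against at most 0.10 in the 5 other muscles. The C26 muscles had immune sums of 81.1, 439 and 29.6 TPM, and the highest sum, in C26 replicate 2, was nearly all Cd68, without which it was 16.7 TPM. The 12 endothelial markers summed to between 168 and 179 TPM in C26 muscles and between 184 and 269 TPM in control muscles, with 184 in control replicate 3. The part of immune or endothelial cells in the Klf2 values was not tested.

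Klf5 (Entrez gene ID 12224), a factor of smooth muscle, fat and epithelia, was the lowest of the 10 members. It had 0.96, 1.07 and 0.38 FPKM in control muscles and 0.76, 0.51 and 0.92 FPKM in C26 muscles. The groups overlapped over most of their range. Klf5 had a log2 fold change of 0.06 (95% interval -0.58 to 0.70, limma adjusted p = 0.871), and it was -0.045 with FPKM as deposited. At such levels a log2 value with 1 added understates a change. Control replicate 3, the lowest in Klf5, was also the lowest control in the fat cell gene Adipoq, at 11.54 FPKM against 176.42 and 79.29. The 10 listed fat cell markers summed to 8541, 4814 and 1194 TPM in control muscles, and the C26 sums lay between 1529 and 1816 TPM, where 6 of them fell and 1, the lipase gene Pnpla2, rose. Without Pnpla2 the C26 sums were 791, 527 and 922 TPM, all below the 1088 TPM of control replicate 3. Their part in the values of Klf5 was not tested.

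Klf3 (Entrez gene ID 16599), the member that binds CtBP and a repressor of adipogenic genes, had 2.83, 1.99 and 3.13 FPKM in control muscles and 2.59, 2.45 and 2.53 FPKM in C26 muscles. All C26 values lay within the range of the controls. Klf3 had a log2 fold change of 0.14 (95% interval -0.21 to 0.49, limma adjusted p = 0.487). With FPKM as deposited its sign turned, to -0.038. The FPKM of a C26 muscle summed to less than those of a control muscle over all genes, so scaling to a common sum moved the C26 values up.

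**Figure D2:**
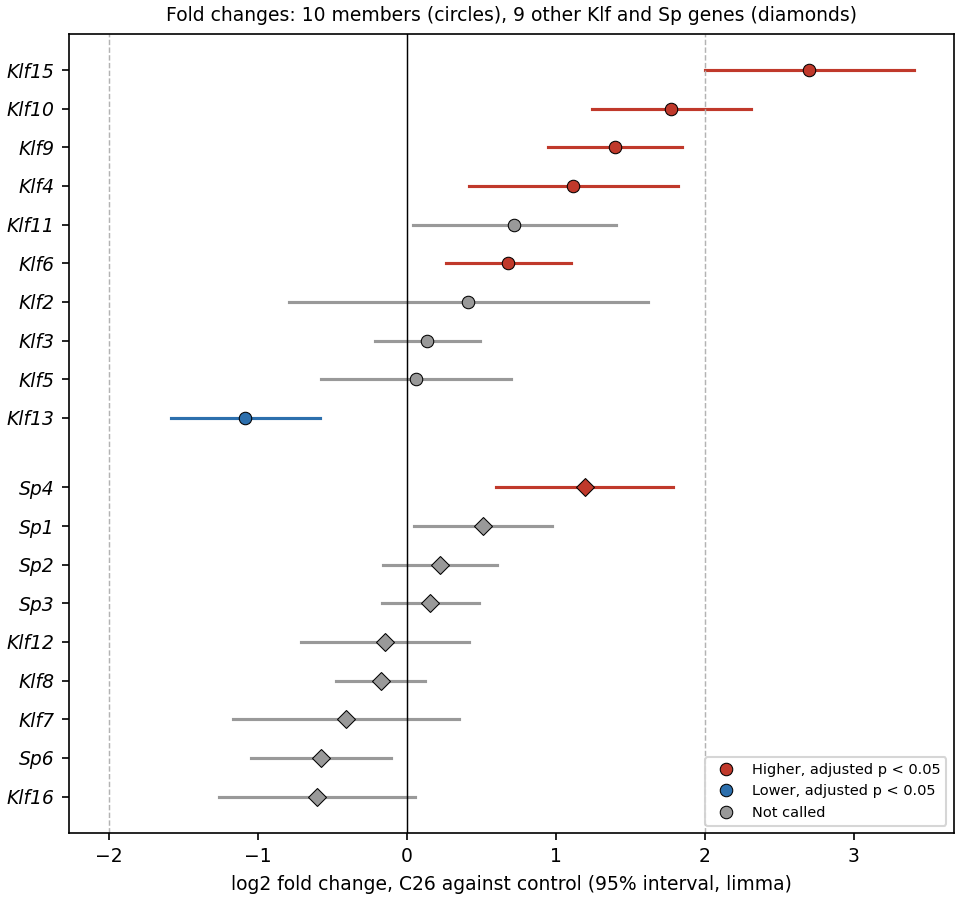
Log2 fold change of C26 against control muscles with its 95% interval from limma for the 10 members (circles) and the 9 other Klf and Sp genes with values (diamonds), with dashed lines at a fold change of 4. Klf15 lay farthest right at 2.70, Klf13 was the member on the left at -1.08, and Sp4 was called among the other genes.

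Because FPKM are given per length, levels of different genes can be compared within a muscle. In control muscles the order of mean FPKM was Klf9, Klf2, Klf15, Klf6, Klf13, Klf10, Klf4, Klf3, Klf11 and Klf5. The place of Klf2 rests on control replicate 3, as Klf2 was above Klf15 in 1 of the 3 control muscles. Neighbours from Klf9 down to Klf10 overlapped in their ranges, as did Klf3 with Klf11, while Klf10 lay above Klf4, Klf4 above Klf3 and Klf11 above Klf5 without overlap. In C26 muscles Klf15 came first and was above Klf9 in all 3 muscles, followed by Klf10, Klf2, Klf6, Klf4, Klf13, Klf11, Klf3 and Klf5. In that order Klf10 overlapped with Klf2, Klf13 with Klf11 and Klf11 with Klf3, and the other neighbours did not overlap.

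The summed level of the 10 members was 163, 161 and 193 TPM in control muscles and 474, 429 and 446 TPM in C26 muscles. All C26 sums were above all control sums. Klf15 made up 16.1%, 23.5% and 9.12% of the members' FPKM in control muscles and 44.7%, 39.5% and 33.4% in C26 muscles. The mean share went from 16.2% ± 7.19 to 39.2% ± 5.66 (SD, n = 3 each), a difference of 23.0 percentage points. By a two-sided exact permutation test this difference had p = 0.1, which is as low as a design of 3 against 3 can reach. The share of Klf9 was 20.4% to 31.1% in control and 22.5% to 32.9% in C26 muscles, with overlap of the groups, while that of Klf13 went from 9.45% ± 1.29 to 1.6% ± 0.34 (SD, n = 3 each). A share moves with the other members of the sum, so a lower share is not by itself a lower level.

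**Figure D3:**
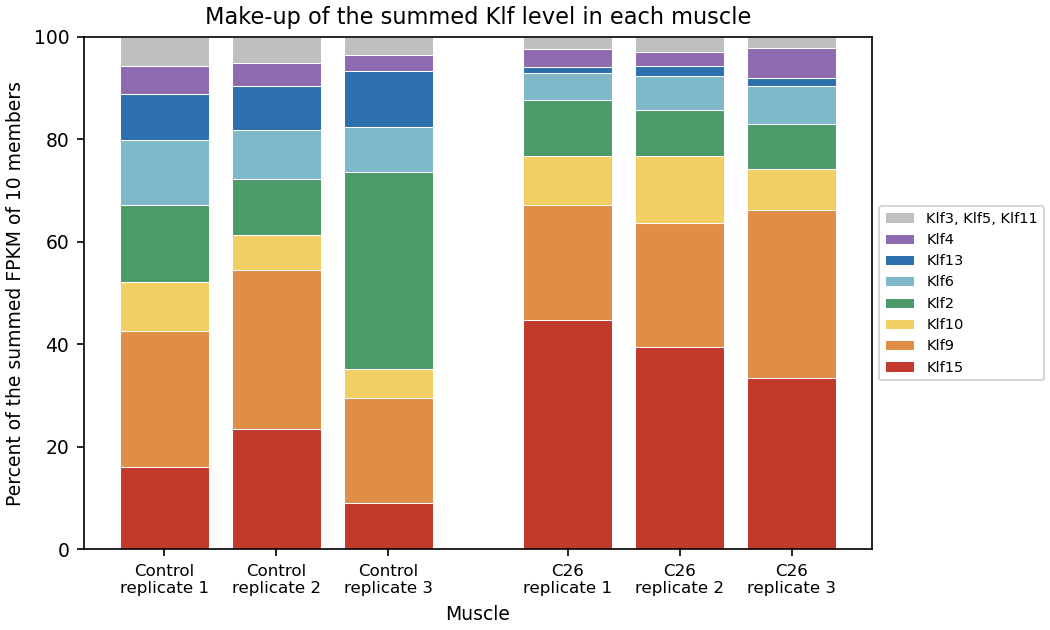
Stacked bars of the percent of the summed FPKM of the 10 members taken by each gene in each muscle, with Klf3, Klf5 and Klf11 joined. Klf15 (red) took 33.4% to 44.7% of the C26 bars and 9.12% to 23.5% of the control bars, and Klf2 (green) took 38.4% in control replicate 3.

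Of 16 other Klf and Sp genes, 9 had values, 1 rose and none fell by limma, against 33.8% of all genes called in either direction, with a median log2 fold change of -0.15. Sp4, which binds the same GC boxes, rose from 1.58, 1.43 and 2.54 FPKM in control muscles to 5.49, 4.99 and 2.80 FPKM in C26 muscles, a log2 fold change of 1.2 (limma adjusted p = 0.0146). Its lowest C26 muscle was just above its highest control muscle, and the call held in 3 of 6 cases with a muscle left out, with limma adjusted p of 0.0580, 0.0533 and 0.0606 without C26 replicates 1 and 2 and control replicate 1. Sp1 and Sp3, the general factors of the family, had log2 fold changes of 0.51 and 0.16 and were not called (limma adjusted p = 0.0824 and 0.392). Klf16, Klf7, Klf12 and Klf8 had log2 fold changes between -0.60 and -0.15 and were not called (limma). These genes were low, with at most 3.73 FPKM in any muscle.

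Of 11 cofactors and ubiquitin ligases of the family, 10 had values, 1 rose and 1 fell, against 33.8% of all genes called in either direction, with a median log2 fold change of 0.16. Ep300, the gene of the acetyltransferase p300, rose from 4.61 ± 0.25 to 6.13 ± 0.62 FPKM (SD, n = 3 each), a log2 fold change of 0.56 (limma adjusted p = 0.0241). Fbxw7, whose ubiquitin ligase complex marks Klf2 and Klf5 for breakdown, fell from 8.15, 6.77 and 7.97 FPKM to 1.81, 1.53 and 4.07 FPKM, a log2 fold change of -1.32 (limma adjusted p = 0.0250). The groups did not overlap for either gene. Ep300 held its call in 3 and Fbxw7 in 1 of the 6 fits with a muscle left out, with limma adjusted p up to 0.0964 and 0.0921. Under the 7 alternatives with all muscles Fbxw7 was called in 7 and Ep300 in 5, with a log2 fold change of 0.34 for Ep300 in FPKM as deposited (limma adjusted p = 0.0682). The corepressor genes Ctbp1, Ctbp2, Sin3a and Sin3b were not called.

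Of 12 genes described as targets of Klf15 in muscle, liver or fat, 11 had values, 7 rose and none fell by limma, against 19.4% of all genes called higher, and their median log2 fold change was 0.93. The part of Klf15 in the values of these genes was not tested. Trim63 and Fbxo32, the ubiquitin ligase genes of muscle atrophy, led with log2 fold changes of 4.89 and 4.37. Acss1, which makes acetyl-CoA from acetate in mitochondria, followed, rising from 10.03, 16.40 and 9.45 FPKM in control muscles to 240.86, 210.04 and 128.88 FPKM in C26 muscles (log2 fold change 4.15, SE 0.32, limma adjusted p = 0.00153). All C26 muscles were far above all controls in Acss1. Cpt1b, the muscle gene for uptake of fatty acids into mitochondria, rose by a log2 fold change of 1.15 (limma adjusted p = 0.0121), with limma adjusted p of 0.0529 and 0.0528 without C26 replicate 1 and control replicate 1. Bcat2, the transaminase gene that opens the breakdown of branched-chain amino acids, had 44.78, 44.97 and 40.02 FPKM in control and 52.49, 60.60 and 43.81 FPKM in C26 muscles and did not pass the test (log2 fold change 0.47, limma adjusted p = 0.0648).

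Of 19 genes of branched-chain amino acid breakdown, the pathway most often tied to Klf15 in muscle, 18 had values, 7 rose and none fell by limma, where 19.4% of all genes were higher and 14.5% lower, and the median log2 fold change was 0.59 beside -0.05 over all genes. Dbt, a core subunit of the branched-chain ketoacid dehydrogenase, rose from 5.66, 7.92 and 4.31 FPKM to 23.98, 20.85 and 11.43 FPKM, a log2 fold change of 1.73 (limma adjusted p = 0.0124). All C26 muscles were above all controls, and C26 replicate 3 was the lowest of them. The part of Klf15 in the values of this pathway was not tested. Acadsb, Hibadh and Aldh6a1, enzymes of later steps, rose by log2 fold changes of 1.46, 1.13 and 1.12. These 4 genes held their calls in 4, 4, 3 and 3 of the 6 fits with a muscle left out, in the order Dbt, Acadsb, Hibadh and Aldh6a1, with limma adjusted p of up to 0.0715.

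Klf15 and Klf9 are both induced by the glucocorticoid receptor. Among 8 genes of the receptor and its induced genes, 6 rose and none fell by limma, against 19.4% of all genes higher and 14.5% lower. Their median log2 fold change was 1.70. Sgk1, a further induced gene of the list, was not called (log2 fold change 0.28, limma adjusted p = 0.529). The part of glucocorticoids in the values of Klf15 and Klf9 was not tested. Fkbp5, the chaperone gene that limits the receptor, went from 6.08, 7.07 and 6.8 FPKM in control muscles to 68.38, 96.79 and 67.82 FPKM in C26 muscles, a log2 fold change of 3.62 (SE 0.18, limma adjusted p = 0.000822). Cebpd rose by a log2 fold change of 4.38, the clock gene Per1 by 1.88 and the factor gene Zbtb16 by 1.79, and the groups did not overlap for any of the 4. The receptor gene Nr3c1 itself had 11.8 ± 2.25 FPKM in C26 and 15.3 ± 1.35 FPKM in control muscles (SD, n = 3 each) and was not called (log2 fold change -0.16, limma adjusted p = 0.523).

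Klf4, Klf6 and Klf10 are genes of the early response to growth factors and stress, and of 13 other immediate early genes 6 rose and none fell by limma, with 19.4% of all genes called higher and 14.5% lower, and the median log2 fold change was 0.68. Atf3, Fos, Btg2 and Junb rose by log2 fold changes of 4.23, 3.42, 2.77 and 2.07. The spread was wide among C26 muscles, with 20.05, 97.98 and 9.93 FPKM of Atf3 and 44.30, 19.3 and 12 FPKM of Fos against at most 1.33 and 2.21 FPKM in control muscles. Without C26 replicate 2 the log2 fold change of Atf3 was 3.34 and without C26 replicate 3 it was 4.98, both called. The log2 fold change of Btg2 lay between 2.50 and 3.27 with 1 muscle left out. Without replicate 3 of both groups, a choice made after seeing the data, it was 3.58. Among C26 muscles Atf3 and Klf10 were highest in replicate 2, Fos in replicate 1, and Klf4 and Klf6 in replicate 3. The part of an early response in the values of Klf4, Klf6 and Klf10 was not tested. Of 13 TGF-beta and Smad genes, 3 rose and 1 fell, a share close to the 33.8% of all genes called in either direction, with a median log2 fold change of 0.23. Smad4, the shared partner of the signalling Smads, rose from 11.9 ± 0.52 to 28.4 ± 4.79 FPKM (SD, n = 3 each), a log2 fold change of 1.41 (limma adjusted p = 0.00361). The ligand gene Tgfb2 fell by a log2 fold change of -1.24 (limma adjusted p = 0.0123), and the receptor genes Tgfbr2 and Tgfbr3 rose by 0.86 and 0.62. Tgfb2 held its call in 4, Tgfbr2 in 2 and Tgfbr3 in 1 of the 6 fits with a muscle left out, with limma adjusted p of up to 0.141. Of 7 alternatives with all muscles, Tgfb2 was called in 6, Tgfbr2 in 4 and Tgfbr3 in 1, so the call of Tgfbr3 rests on the settings used.

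Several members act in the making of fat cells, where Klf4, Klf5, Klf9 and Klf15 promote and Klf2 and Klf3 restrain it. Of 8 adipogenic factors, 2 rose and 3 fell, against 19.4% and 14.5% of all genes, with a median log2 fold change of -0.77. Cebpb rose from 30.56, 37.47 and 48.25 FPKM to 129.76, 137.93 and 149.26 FPKM, a log2 fold change of 2.06 (limma adjusted p = 0.00226), and Cebpd, also counted above, was the other. Cebpa, a factor of mature fat cells, had 40.80, 26.45 and 6.53 FPKM in control muscles and 2.50, 2.71 and 1.18 FPKM in C26 muscles, a log2 fold change of -2.74 (limma adjusted p = 0.0231) that held its call in 1 of the 6 fits with a muscle left out (limma adjusted p up to 0.0728) and was -3.53 without control replicate 3 (limma adjusted p = 0.00408). Ebf1 fell by a log2 fold change of -1.31 and held its call in all 6. The fall of Cebpa went along with the fat cell markers given above for Klf5, and their part in it was not tested. Of 6 endothelial genes described as targets of Klf2 or Klf4, 5 had values, 1 rose and 1 fell, again close to the 33.8% of all genes called. Thbs1, a matrix gene that restrains vessel growth, had 0.35, 0.26 and 0.32 FPKM in control and 3.80, 3.53 and 1.21 FPKM in C26 muscles (log2 fold change 1.93, limma adjusted p = 0.00857). Vcam1, an adhesion gene, fell by a log2 fold change of -1.42 (limma adjusted p = 0.0364), and held its call in 2 of the 6 fits and in 5 of 7 alternatives with all muscles. Both genes are low, and with a pseudocount of 0.1 in place of 1 their log2 fold changes were 3.02 and -2.09.

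**Figure D4:**
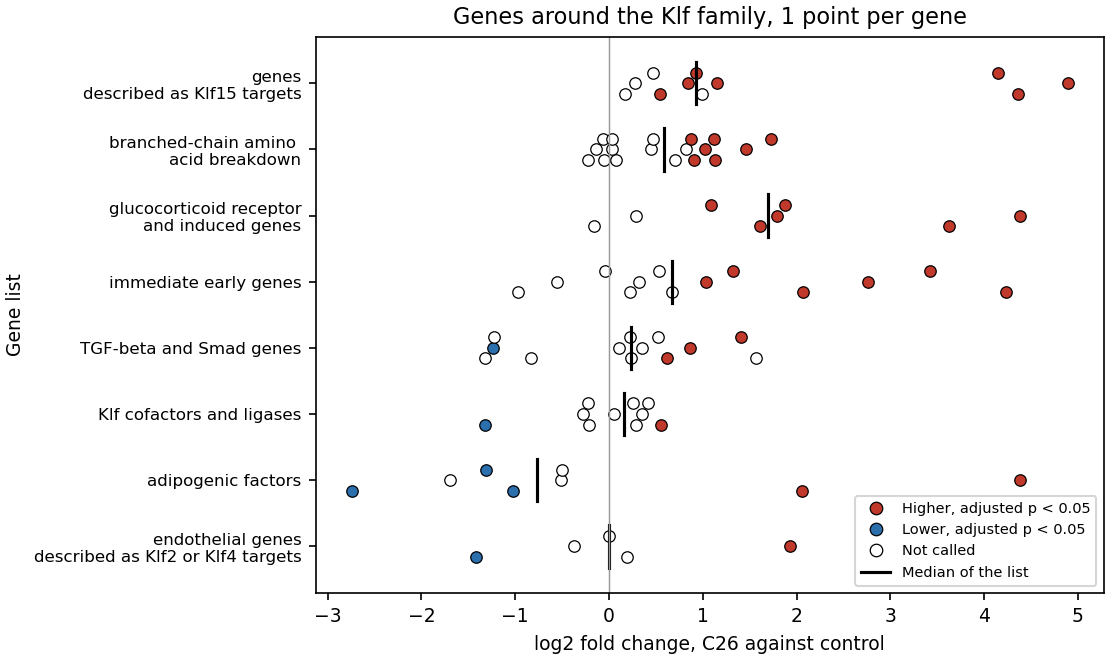
Log2 fold change of C26 against control muscles for the genes of 8 lists, 1 point per gene, filled where limma gave an adjusted p under 0.05 and with a line at the median of each list. The genes described as Klf15 targets had a median of 0.93, and adipogenic factors had a median of -0.77.

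Among the genes whose log2 values, centred on their means over the 6 muscles, lay closest to those of Klf15 were Nploc4, Fdft1, Bnip3 and Slc35f5, with root mean square differences of 0.121, 0.122, 0.167 and 0.171. Nploc4 encodes a cofactor of the segregase p97, Fdft1 squalene synthase, Bnip3 a mitophagy receptor and Slc35f5 a transporter-like membrane protein. Nploc4 had 16.28, 17.38 and 12.11 FPKM in control muscles and 115.75, 97.76 and 69.58 FPKM in C26 muscles. This is the order of Klf15 in both groups, but Nploc4 was picked by its likeness to Klf15 over these same muscles. The nearest members were Klf10 and Klf9, at places 313 and 640 with differences of 0.609 and 0.744. This measure rests mostly on the size of the difference between the groups and partly on the order within them.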

How the data were processed

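The authors filtered out adaptor, low-quality and rRNA reads, mapped the single-end reads (50 bases) to GRCm38.p5 by bowtie2, and deposited RSEM estimates in FPKM, given to 2 decimals. The submitters' processing notes list Bowtie2 2.2.5, RSEM 1.2.12 and HISAT2 2.0.4, and name the build mm9. The extraction text of the labels names a cell line and was not used. No read counts were used, the depth of the libraries is unknown, and precision rests on the 3 muscles of a group, which were taken as separate mice.

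FPKM were matched to symbols by Entrez gene ID (13327 of 13363 genes, RefSeq of GRCm38.p6), rescaled to TPM, divided by TMM factors computed without precision weights (trimming 30% by log ratio and 5% by level), and log2-transformed after adding 1. Groups came from the sample titles. All genes were fitted with limma 3.58.1 (R 4.3.3), moderated variances and Benjamini-Hochberg adjustment. Calls had an adjusted p under 0.05, and the fold criterion of 4 is that of the study. The fit was tested on simulated data. As alternatives, the replicate number was added as a block, the pseudocount was set to 0.1, genes under a mean TPM of 1 were dropped, TMM was left out, quantile normalization or the deposited FPKM replaced it, an intensity trend was fitted, and each muscle was left out. Leaving out replicate 3 of both groups was added after seeing the data.

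The members, lists and tests were chosen with earlier results of these data known. Named were all members, up to 4 called genes of each list with the largest change (all for the other Klf and Sp genes) and the 5 genes most like Klf15, of which 1 is not reported here. Bcat2, Nr3c1, Sgk1 and the other Klf, Sp and corepressor genes that were not called were added after their values were seen. So were the marker genes of fibres, fat and immune cells. Motifs were searched on both strands of the 250 bases before the start in the RefSeq promoters. Figures were drawn with matplotlib 3.10.9.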

Additional observations from a re-analysis of the deposited data

How the results depend on the processing

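Klf15, Klf9 and Klf10 kept their direction and their calls under every alternative and in all 6 fits that left out a muscle. Klf13 kept both under every alternative with all muscles. With the replicate number as a block, 3 members rose instead of 5. Over all genes, 1844 were higher instead of 2590 and 1236 lower instead of 1931. Klf4 (log2 fold change 1.12, limma adjusted p = 0.0652) and Klf6 (0.68, limma adjusted p = 0.0789) were no longer called. Nor were Sp4, Ep300, Tgfbr2 and Tgfbr3 (limma adjusted p = 0.0527, 0.0771, 0.0755 and 0.0502). The numbers are not known to pair the mice: the deviations of same-numbered muscles from their group means had correlations across genes of -0.04, -0.08 and -0.11, and no muscle correlated best with its own number. Klf6 was also not called with FPKM as deposited (0.46) or quantile normalization (0.43). FPKM as deposited turned Klf3 to -0.038 and Klf5 to -0.045, moved the median over all genes from -0.05 to -0.14 (log2), and called 1678 genes higher and 2504 lower, against 2590 and 1931.

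With a muscle left out, 3 to 6 members rose and 0 to 1 fell, the 0 being without C26 replicate 1, and 1131 to 3311 genes in all were higher and 669 to 2160 lower, with the fewest in both directions without C26 replicate 1. The log2 fold changes ranged from 0.0088 to 1.01 for Klf2, from 0.92 to 1.37 for Klf4, from -0.19 to 0.24 for Klf5, from 0.59 to 0.80 for Klf6, from 0.50 to 1.03 for Klf11 and from -1.19 to -0.90 for Klf13. Klf5 was -0.02 without C26 replicate 3 and -0.19 without control replicate 3. Without replicate 3 of both groups, a choice made after seeing the data, Klf2 (1.17) and Klf11 (0.85) were called and Klf5 was -0.27. The difference in the share of Klf15 lay between 19.4 and 26.6 percentage points. For 33 other genes taken by the naming rule, 404 of the alternative values kept direction and call and 58 kept the direction alone. The cause of these changes was not tested, nor was the part of the smaller number of muscles in the fits that left out some. FPKM to 2 decimals limit what can be said of members near 1 FPKM, such as Klf5.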

Other observations

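Klf16, another family member that binds Sin3A, had the same value of 0.98 FPKM in all 3 C26 muscles and 1.40, 1.6 and 3.73 FPKM in control muscles. Its groups did not overlap, and it was not called (log2 fold change -0.60, limma adjusted p = 0.130). Sp6 had 0.03 to 0.04 FPKM in C26 muscles and 0.22 to 0.76 FPKM in control muscles, likewise without overlap and without a call (log2 fold change -0.57, limma adjusted p = 0.0631). Both were highest in control replicate 3 in FPKM, as were Klf2, Klf3, Klf7, Klf13 and Sp3. That muscle also had the largest sum of FPKM over all genes, at 688300.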
